A study of Drosophila melanogaster with 7 samples.

Results

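The insulin-like peptide genes Ilp1, Ilp2, Ilp3, Ilp5, Ilp6 and Ilp7 were followed across RNA libraries of tagged neuronal nuclei and of whole brain from adult Drosophila melanogaster. They are the 6 genes that carry these symbols in the deposited gene table, out of 15551 fly genes, and were chosen by name. The tagged libraries came from frozen heads of flies in which a GAL4 line drove unc84-GFP, a green-fluorescent nuclear envelope protein by which nuclei were pulled down on antibody-coated beads. R57C10-GAL4 drove it in all mature neurons, OK107-GAL4 mostly in Kenyon cells, which form the mushroom body, and Tdc2-GAL4 mostly in octopaminergic neurons. Whole dissected brain, with every cell of the brain and no driver named, was the fourth group. Its RNA is labelled nuclear, but how it was made is not given in the sources used here. A difference from whole brain may therefore also be one of nuclear against total RNA, or of frozen head against dissected brain. The tables hold 6 libraries for the 7 labelled samples: 1 for R57C10, where 2 are labelled, 2 for OK107, 2 for Tdc2, each pair called a and b here, and 1 for whole brain. All flies were adult, and sex and genetic background are not given in the sources used here.

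Insulin-like peptides of the fly are secreted hormones that bind a shared insulin receptor, InR, and act through a kinase cascade that restrains the transcription factor foxo and promotes growth and nutrient storage. In the adult brain, a small cluster of neurosecretory neurons in the pars intercerebralis, the insulin-producing cells, is known as the source of Ilp2, Ilp3 and Ilp5. Ilp1 is made in the same cells mainly at stages without feeding, Ilp6 chiefly in fat body and in glia, and Ilp7 in a few neurons of the ventral nerve cord. The OK107 driver is known to label, beside Kenyon cells, neurosecretory cells of the pars intercerebralis, so OK107 nuclei are not Kenyon cell nuclei alone.

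Levels are in FPKM, which scales mapped fragments by transcript length and library size. Between libraries an offset can remain, as FPKM summed over all fly genes ran from 2.82e+05 in R57C10 to 3.87e+05 in whole brain. Ratios of FPKM between libraries carry that offset. Steps between low values implied 23.1 to 60.2 M reads per library. On that estimate the 6 genes were covered by 18.2 reads (Ilp7 in Tdc2 a) to 7355 reads (Ilp2 in OK107 a). The genes that define each driver's cells were high where the labels put them. The Kenyon cell gene ey read 248 and 259 FPKM in OK107 against 35.9 in R57C10, and Tbh, the octopamine-synthesising enzyme, read 1668 and 2159 in Tdc2 against 37.1 in R57C10. The glial gene repo read 1.57 in R57C10 against 21.3 in whole brain. Not all marker genes did so: 11 of 11 glial genes tested were higher and 5 of 8 pan-neuronal genes lower in Tdc2 than in R57C10, 8 of 11 glial genes were higher in OK107 than in R57C10 (4 with median centring), and the Kenyon cell markers Lim1 and chinmo were lower there. Among all genes tested, 20.6% were higher and 15.2% lower in Tdc2, and 21.4% higher and 3.56% lower in OK107. Nothing in the labels says that libraries of a group came from separate preparations, so p-values measure the spread between these libraries, which may be technical. In such bulk samples fewer cells of a type and less RNA per cell cannot be told apart.

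The 6 genes differed in their pattern over the libraries. Ilp2, Ilp3 and Ilp5 were high in OK107 and in whole brain and low in R57C10 and Tdc2. Ilp1 was highest in R57C10 and lowest in whole brain. Ilp6 was high in Tdc2 and whole brain, and Ilp7 was low throughout, with its highest value in R57C10. Over the 6 libraries, on the log2(FPKM + 1) scale, Pearson's r was 0.995 between Ilp3 and Ilp5, 0.983 between Ilp2 and Ilp3, and 0.974 between Ilp2 and Ilp5. It was -0.846 between Ilp1 and Ilp6, 0.805 between Ilp1 and Ilp7, and -0.0718 between Ilp1 and Ilp2. These describe 6 points in 4 groups that share their library preparation and carry no test.

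**Figure D1:**
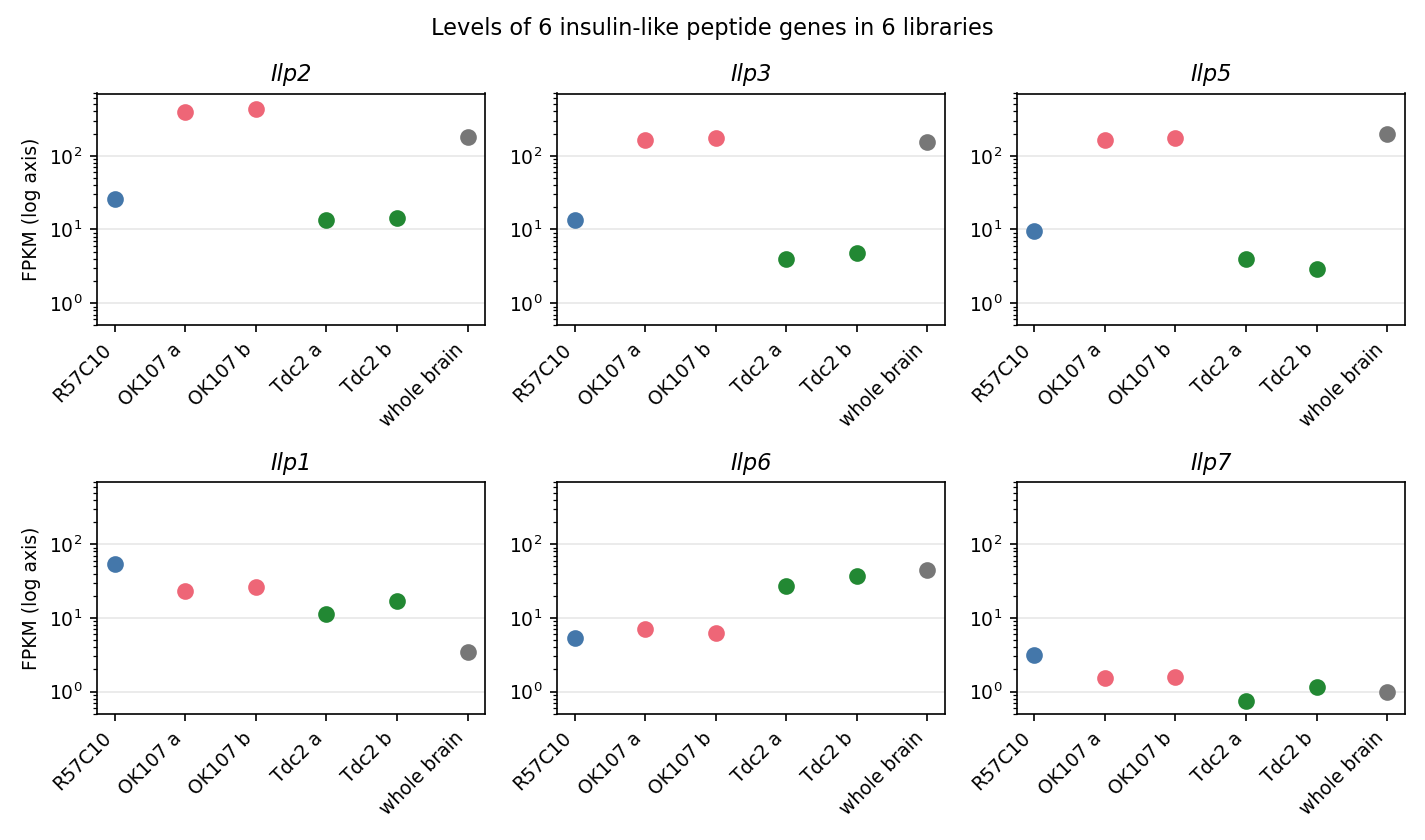
Level of each gene in FPKM (log axis) in each of the 6 libraries, with 1 point per library and colour by group. Ilp2, Ilp3 and Ilp5 stand high in both OK107 libraries and in whole brain, Ilp1 falls from 53.3 FPKM in R57C10 to 3.42 in whole brain, and Ilp6 is highest in Tdc2 and whole brain.

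Ilp2 (CG8167), the peptide most studied as the fly's counterpart of insulin, read 26.0 FPKM in R57C10, 396 and 434 in OK107 a and b, 13.4 and 14.2 in Tdc2 a and b, and 182 in whole brain. In OK107 it stood at rank 70 of 15018 and rank 65 of 15045 genes with a value. The OK107 mean of 415 ± 27.0 (SD, n = 2) was 16.0 times the R57C10 value, 30.1 times the Tdc2 mean and 2.28 times the whole brain value.

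Ilp3 (CG14167), another product of the insulin-producing cells, read 13.5 FPKM in R57C10, 164 and 176 in OK107, 3.95 and 4.79 in Tdc2, and 156 in whole brain. OK107 and whole brain stood close together and far above the rest. The OK107 mean of 170.1 ± 8.53 (SD, n = 2) was 12.6 times R57C10 and 38.9 times the Tdc2 mean, but 1.09 times whole brain.

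Ilp5 (CG33273), the remaining gene of this kind, read 9.49 FPKM in R57C10, 163 and 173 in OK107, 3.96 and 2.88 in Tdc2, and 200.3 in whole brain. It differs from Ilp2 in that whole brain, not OK107, held the highest value. Its range over the libraries, 69.7-fold from lowest to highest, was the widest of the 6 genes, against 32.5-fold for Ilp2 and 44.5-fold for Ilp3.

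The proportions of the RNA of these 3 genes also varied. The ratio of Ilp2 to Ilp3 was 1.17 in whole brain, 1.93 in R57C10, 2.42 and 2.47 in OK107, and 3.38 and 2.97 in Tdc2. The ratio of Ilp2 to Ilp5 was 0.910 in whole brain, 2.74 in R57C10, 2.43 and 2.51 in OK107, and 3.37 and 4.95 in Tdc2. Whole brain thus had the lowest share of Ilp2 relative to its partners, and the 2 OK107 libraries gave nearly equal ratios. Ilp5 in Tdc2 rests on about 43.8 and 49.9 implied reads, which limits the Tdc2 ratios.

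Ilp1 (CG14173) read 53.3 FPKM in R57C10, 23.2 and 26.6 in OK107, 11.3 and 16.9 in Tdc2, and 3.42 in whole brain. Whole brain, the highest library for Ilp5, was the lowest for Ilp1. R57C10 was 15.6 times whole brain and 2.14 times the OK107 mean of 24.9 ± 2.43 (SD, n = 2). In R57C10 Ilp1 exceeded Ilp2 by 2.05-fold, whereas in whole brain Ilp2 exceeded Ilp1 by 53.3-fold.

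Ilp6 (CG14049), whose peptide resembles vertebrate insulin-like growth factors, read 5.35 FPKM in R57C10, 7.10 and 6.28 in OK107, 26.8 and 37.6 in Tdc2, and 45.3 in whole brain. R57C10 and OK107 formed a low group, and Tdc2 and whole brain a high one. The Tdc2 mean of 32.2 ± 7.63 (SD, n = 2) was 6.01 times R57C10. Ilp6 is the only one of the 6 listed with more than 1 isoform. Ilp6-RA made up 96.5% to 99.9% of its FPKM in every library, and Ilp6-RB was listed at 0 in all libraries but R57C10.

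Ilp7 (CG13317), a peptide of neurons that innervate gut and reproductive tract, read 3.15 FPKM in R57C10, 1.53 and 1.57 in OK107, 0.753 and 1.16 in Tdc2, and 1.00 in whole brain. It was the lowest of the 6 genes in every library, and whole brain lay between the Tdc2 libraries. R57C10 was 3.15 times whole brain, and its 119 implied reads were the most for this gene in any library.

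The make-up of the summed level changed with the group. The 6 genes summed to 111 FPKM in R57C10, 755 and 818 in OK107, 60.1 and 77.5 in Tdc2, and 588 in whole brain. Ilp2 supplied 52.5% and 53.1% of it in OK107. Ilp1 supplied 48.1% in R57C10 but 0.582% in whole brain. Ilp6 supplied 44.6% and 48.5% in Tdc2. Each kind of tagged nuclei therefore had a different leading gene, and in whole brain it was Ilp5 with 34.0%.

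**Figure D2:**
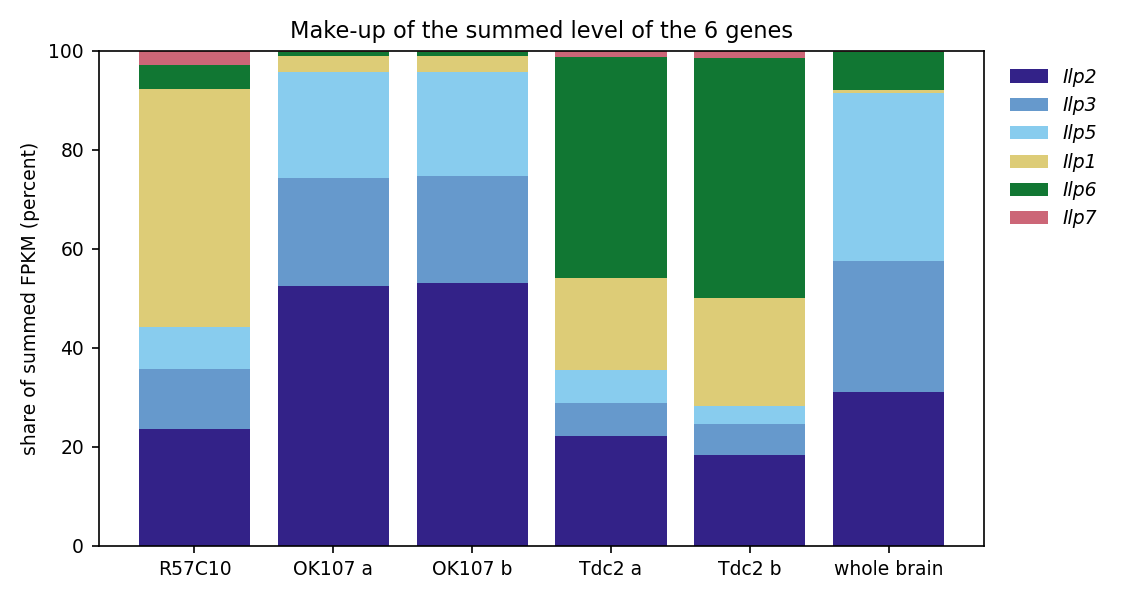
Share of the summed FPKM of the 6 genes (percent, stacked to 100) supplied by each gene in each library. Ilp1 leads in R57C10 (48.1%), Ilp2 in both OK107 libraries (52.5% and 53.1%), Ilp6 in both Tdc2 libraries (44.6% and 48.5%), and Ilp5 in whole brain (34.0%).

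Differences between groups were tested with limma on log2(FPKM + 1) across all genes that reached 1 FPKM in 2 or more libraries, and a gene passed at a Benjamini-Hochberg adjusted p under 0.05. All 6 genes passed the filter. Each main fit has 2 residual degrees of freedom. R57C10 and whole brain, with 1 library each, borrow their spread from the pairs of OK107 and Tdc2. The log2 scale with 1 added understates differences at low levels. The median difference over all genes was 0.30, 0.03, 0.28, -0.22, 0.10 and -0.15 in the 6 comparisons in the order they are given here, so each was repeated with every library centred on its median. Changes to the 6 genes and the larger changes to list counts are given beside the results. Library names hold a 6-digit number that looks like a date, shared by both OK107 libraries and Tdc2 a, with another shared by R57C10, Tdc2 b and whole brain. It is called a date tag here. The labels do not explain it, and reading it as a batch is an assumption. Only Tdc2 holds both tags, so a term for the tag is set by Tdc2 b against Tdc2 a. The OK107 pair alone then gives the spread.

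OK107 nuclei were compared with all tagged neurons to ask which genes stand out in them. Ilp2, Ilp3 and Ilp5 were higher in OK107 and Ilp1 was lower, so 4 of the 6 genes passed, where 24.9% of the 9585 genes tested passed in either direction (21.4% higher and 3.56% lower, a split that turned to 792 genes higher and 1562 lower with median centring). In limma the log2 difference was 3.94 for Ilp2 (SE 0.12, adjusted p 0.00143), 3.56 for Ilp3 (SE 0.15, adjusted p 0.00145) and 4.01 for Ilp5 (SE 0.18, adjusted p 0.00159). The difference of Ilp1 was -1.07 (SE 0.25, limma adjusted p 0.038), and this call was lost without either OK107 library (adjusted p 0.11 and 0.14), without the filter (0.193) or with the date tag as a term (0.0536). Ilp6 gave 0.27 (95% interval -0.32 to 0.87, limma adjusted p 0.408), which turned to -0.17 with median centring and passed with the date tag as a term (0.75, adjusted p 0.0229). Ilp7 gave -0.71 (limma adjusted p 0.0561), and passed with a pseudocount of 5 (-0.32, adjusted p 0.0361), with median centring (-1.15, adjusted p 0.0123) and without Tdc2 a (0.00819) or Tdc2 b (0.00832). OK107 and R57C10 share no date tag in their library names, so no difference within a tag can be given, and with the tag as a term Ilp2, Ilp3 and Ilp5 passed as before. In the authors' deposited table, which lists a q-value only under 0.05, OK107 b against R57C10 has q of 1.776e-13 for Ilp2, 2.824e-10 for Ilp3 and 3.802e-11 for Ilp5 and none for the other 3 genes; a q is listed there for 7.65% of all genes.

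Tdc2 nuclei against all tagged neurons gave the reverse for the brain insulins. All 6 genes passed, where 35.9% of all genes did (20.6% higher and 15.2% lower, with median centring 1786 genes and 2272). Ilp1, Ilp2, Ilp3, Ilp5 and Ilp7 were lower in Tdc2, by limma log2 differences of -1.87, -0.87, -1.43, -1.26 and -1.09 with adjusted p between 0.00359 and 0.0134. Ilp6 was higher by 2.37 (SE 0.23, limma adjusted p 0.00328). Without the filter on low values 2 of the 6 passed, Ilp2 and Ilp3. Tdc2 b shares its date tag with R57C10, and between these 2 libraries the difference was -1.60 for Ilp1, -0.83 for Ilp2, -1.32 for Ilp3, -1.44 for Ilp5, -0.94 for Ilp7 and 2.60 for Ilp6, the same signs as in the fit. The authors' deposited table lists a q for this pair for Ilp6 alone of the 6 genes (0.000373), and for 10.4% of all genes.

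OK107 against Tdc2 is the comparison with 2 libraries on each side. Ilp2, Ilp3 and Ilp5 were higher in OK107, by limma log2 differences of 4.81 (SE 0.10), 5.00 (SE 0.12) and 5.27 (SE 0.15), with adjusted p of 0.000102, 0.00019 and 0.000245. Ilp1 was higher by 0.80 (SE 0.20, limma adjusted p 0.0283), Ilp6 was lower (-2.09, SE 0.19, limma adjusted p 0.00226), and Ilp7 did not pass (0.39, limma adjusted p 0.0981) except without Tdc2 b (0.0157) or with the date tag as a term (0.0158). Thus 5 of 6 genes passed, where 48.3% of all genes did (34.3% higher and 14.0% lower, with median centring 1362 genes and 2073). The Ilp1 call was lost with median centring (0.51, limma adjusted p 0.0771), without the filter (0.164), and without OK107 a (0.0844) or OK107 b (0.143). Against Tdc2 a alone, which shares their date tag, OK107 a and b differed by 4.79 and 4.92 for Ilp2, 5.06 and 5.16 for Ilp3, 5.05 and 5.13 for Ilp5, and -1.78 and -1.93 for Ilp6. For OK107 a against Tdc2 a the authors' deposited table lists q as 0 for Ilp2 and Ilp3, 1.148e-13 for Ilp5 and 0.00976 for Ilp6, and a q for 8.51% of all genes.

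**Figure D3:**
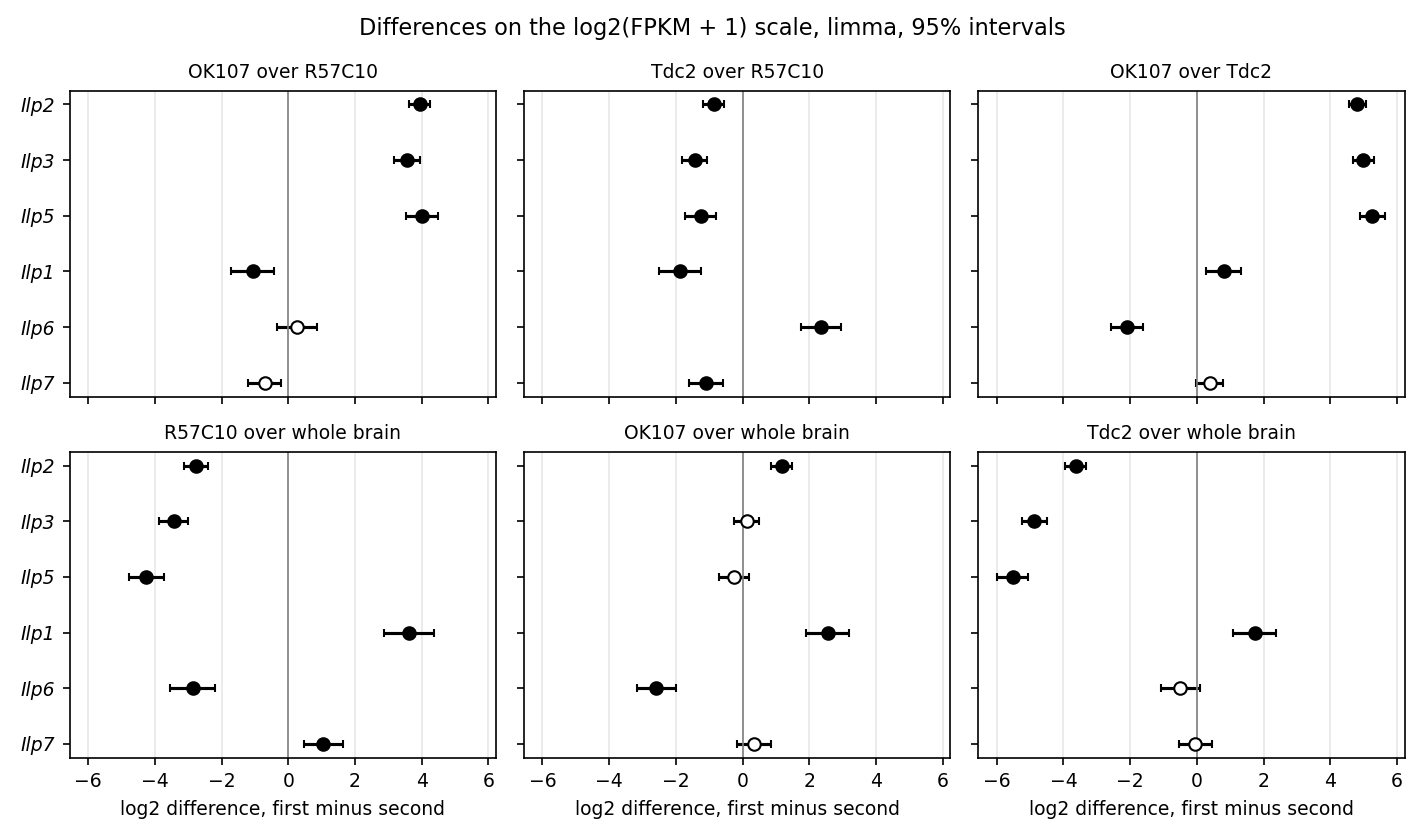
Log2 difference on the log2(FPKM + 1) scale, the group named at the start of each panel title minus the other, with 95% intervals from limma; filled points passed at an adjusted p under 0.05 and open points did not. Ilp2, Ilp3 and Ilp5 lie together in most panels, with Ilp1 on the other side of 0 from them in 3 of the 6 and Ilp6 on the other side in OK107 against Tdc2 and in Tdc2 against R57C10.

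All-neuron nuclei against whole brain, which share a date tag, separated the genes most. All 6 passed, where 55.1% of the 9605 genes tested in this fit did (22.3% higher and 32.8% lower, with median centring 3078 genes and 2068). Ilp1 and Ilp7 were higher in R57C10 by limma log2 differences of 3.62 (SE 0.29, adjusted p 0.00117) and 1.05 (SE 0.23, adjusted p 0.0151), the latter only with the filter (0.0719 without it). Ilp2, Ilp3, Ilp5 and Ilp6 were lower, at -2.76, -3.44, -4.26 and -2.87, with limma adjusted p between 0.00043 and 0.0015. In the authors' deposited table this pair has q of 0.00136 for Ilp1, 0.0143 for Ilp2, 0.00173 for Ilp3, 0.000103 for Ilp5 and 0.00976 for Ilp6, and none for Ilp7; a q is listed there for 10.2% of all genes. The sign for Ilp1 was thus opposite to that of Ilp2, Ilp3 and Ilp5 in both sources.

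OK107 and Tdc2 were also set against whole brain. In OK107, Ilp1 (2.55, limma adjusted p 0.00149) and Ilp2 (1.18, limma adjusted p 0.00162) were higher and Ilp6 was lower (-2.59, limma adjusted p 0.00114), so 3 of 6 passed, where 53.5% of all genes did (31.5% higher and 22.0% lower). For Ilp3 the difference was 0.13 with a 95% interval from -0.25 to 0.50, and for Ilp5 it was -0.25 with an interval of -0.71 to 0.21. OK107 and whole brain do not share a date tag, and with a term for the tag Ilp3 (0.35, limma adjusted p 0.0468), Ilp5 (-0.61, 0.00717) and Ilp7 (0.65, 0.0347) passed as well, and Ilp5 also passed without Tdc2 a (0.0255) or Tdc2 b (0.0254). In Tdc2, Ilp1 was higher (1.74, limma adjusted p 0.00581, but 0.0777 without the filter) and Ilp2, Ilp3 and Ilp5 were lower, at -3.63, -4.87 and -5.52 (limma adjusted p 0.000421 for each), so 4 of 6 passed, where 50.3% of all genes did (21.2% higher and 29.1% lower, with median centring 2742 genes and 1943). Tdc2 b alone, which shares its date tag with whole brain, differed from it by 2.02, -3.59, -4.76 and -5.70 for these genes. Ilp6 gave -0.50 (95% interval -1.09 to 0.08), a difference that passed without Tdc2 b (-0.74, limma adjusted p 0.00509). The comparisons share libraries, so their calls are not independent.

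From the main fits an order of groups could be given for each gene, although several calls were lost or gained under the other settings given above. For Ilp1 it was R57C10, OK107, Tdc2, whole brain, and for Ilp2 it was OK107, whole brain, R57C10, Tdc2. Every pair of groups was past the threshold there. For Ilp1, OK107 against R57C10 and against Tdc2 was lost without the filter or without either OK107 library. Tdc2 against R57C10 and against whole brain was also lost for Ilp1 without the filter. For Ilp3 and Ilp5 the upper pair, OK107 and whole brain, did not differ beyond the spread, while R57C10 and Tdc2 followed in that order. For Ilp6 whole brain and Tdc2 did not differ beyond it, nor did OK107 and R57C10 below them. For Ilp7 R57C10 passed against Tdc2 and whole brain, and no other pair passed.

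The genes most like each insulin gene were ranked by Pearson's r over the 6 libraries among 736 genes of at least 5 FPKM on average and an SD of at least 1 on the log2 scale. The 8 nearest genes of Ilp2, Ilp3 and Ilp5 shared 6 beside the insulin genes themselves: jdp, mthl8, sNPF, npf, CG40378 and CG31997. jdp, a basic leucine zipper transcription factor gene, was nearest to Ilp2 (r 0.992) and read 168 FPKM in R57C10, 538 and 574 in OK107, 122 and 100.2 in Tdc2, and 348 in whole brain. mthl8, which encodes a methuselah-like receptor, was listed at 0 in R57C10 and in both Tdc2 libraries and read 19.8, 20.7 and 20.3 in OK107 a, OK107 b and whole brain. sNPF and npf encode the short neuropeptide F precursor and neuropeptide F, and sNPF is also on the list of Kenyon cell markers, with 656 and 682 FPKM in OK107 against 184 in R57C10.

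Other neurosecretory genes of the pars intercerebralis were then read beside the insulins. In OK107 against R57C10, 4 of the 8 rose and none fell in limma, where 21.4% of all genes rose and 3.56% fell, and the list median was 0.76 against 0.30 for all genes. Dh, the diuretic hormone 44 gene, and Dms, the myosuppressin gene, rose by 3.30 and 3.48 on the log2 scale. Dms reached 1418 and 1618 FPKM in OK107 against 134 in R57C10 and 351 in whole brain. dimm, a basic helix-loop-helix factor of peptide-secreting cells, rose by 1.10, and Dsk, the drosulfakinin precursor, by 1.00. IFa (SIFamide, 0.52), Optix (-0.21), Rx (-0.46) and Vsx1 (-0.04) did not pass, although with median centring Rx, a homeobox gene, was lower (-0.90, limma adjusted p 0.0247). Against Tdc2, 3 of the 8 rose in OK107 and 2 fell, where 34.3% of all genes rose and 14.0% fell. The list median was 0.09 there against 0.28 for all genes. Against whole brain, 3 rose in OK107 and 3 fell, where 31.5% of all genes rose and 22.0% fell. That list median was 0.01 against 0.10 for all genes.

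Dsk is a peptide also known in the adult insulin-producing cells, and its levels ran unlike those of Ilp2. It read 14.0 FPKM in R57C10, 29.9 and 28.2 in OK107, 185 and 210.4 in Tdc2, and 124 in whole brain. Tdc2 was thus its highest group, and the log2 difference of OK107 from Tdc2 was -2.72 for Dsk and 4.81 for Ilp2.

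Of the transcription factors listed for insulin-producing cells, 3 of the 4 tested rose in OK107 against R57C10 in limma. The share over all genes was 21.4% higher and 3.56% lower. ey, a Pax6 homolog that activates Ilp5 together with dac, is shared with the Kenyon cell list and rose by 2.78, and dac, also shared, rose by 1.47. dimm was the other one and Optix did not pass. tll, which was not tested, read between 0 and 0.0998 FPKM. Of the 13 Kenyon cell markers 10 rose and 2 fell (8 and 2 with median centring), beside the 4 of 8 neurosecretory genes above. The part of either cell type in the differences of Ilp2, Ilp3 and Ilp5 was not tested. ey and dac also changed with Ilp5 in OK107 against Tdc2 (4.34 and 2.80) and in Tdc2 against R57C10 (-1.56 and -1.33). Ilp5 was lower in R57C10 against whole brain (-4.26), while ey (1.73) and dac were higher. Ilp5 was also lower in Tdc2 against whole brain (-5.52), while ey (0.17) and dac (-0.32) did not pass. Both rose in OK107 against whole brain (4.51 and 2.48), while Ilp5 did not pass (-0.25). The part of ey and dac in the level of Ilp5 was not tested.

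Receptors known to act on insulin-producing cells changed in both directions. In OK107 against R57C10, 1 of 10 rose and 2 fell in limma, where 21.4% of all genes rose and 3.56% fell. Oamb, an octopamine receptor also on the Kenyon cell list, rose by 0.75, and Pdfr, the receptor of pigment-dispersing factor, was among those that fell (-1.41). With median centring none rose and 4 fell, and Oamb did not pass (0.30). In OK107 against Tdc2, 6 rose and 1 fell (3 and 1 with median centring), where 34.3% of all genes rose and 14.0% fell. Oamb (1.87), Dh44-R1, a diuretic hormone receptor (1.22), 5-HT1A, a serotonin receptor (0.98), and GABA-B-R2 (0.81) were among the 6, and sNPF-R, the receptor of short neuropeptide F, was lower (-0.89). In R57C10 against whole brain, where Ilp2, Ilp3 and Ilp5 were lower, 7 of 10 receptors were higher and 1 was lower (9 and 0 with median centring). There 22.3% of all genes were higher and 32.8% lower.

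Genes that process and store peptide hormones differed in both directions. In OK107 against R57C10, 3 of 13 rose, a share near the 21.4% of all genes, namely 7B2 (0.85), the cofactor of the prohormone convertase amon, Phm (0.90), an amidating enzyme, and Sytalpha (1.16), a synaptotagmin of peptidergic vesicles, and Caps, a factor of dense core vesicle release, was lower (-0.70). amon itself, which cleaves peptide precursors, read 169 FPKM in R57C10 and 229 and 205 in OK107 and did not pass (0.36). With median centring 2 rose and 5 fell, and 7B2 did not pass (0.41, limma adjusted p 0.062). In Tdc2 against R57C10, 5 of 13 rose and 4 fell (5 and 5 with median centring), with Sytalpha at -1.12 and Sytbeta at 1.19. There 20.6% of all genes rose and 15.2% fell.

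Downstream of the peptides, 6 of 23 insulin pathway genes rose in OK107 against R57C10 and none fell in limma, near the 21.4% of all genes that rose, and the list median of 0.30 was that of all genes. The largest differences were those of Thor, a translation repressor that foxo switches on (2.55), and of foxo (1.67). ImpL2, a secreted protein that binds insulin-like peptides, rose by 1.14, Rheb, an activator of Tor, by 0.75, the receptor InR by 0.53 and the insulin-degrading enzyme Ide by 0.44. The more highly expressed Pdk1 (0.28), dock (0.25) and step (0.16) did not pass. With median centring 3 rose (Thor, foxo and ImpL2) and 3 fell (Pi3K92E, Akt1 and rictor), and Rheb (0.30), InR (0.08) and Ide (-0.0043) did not pass. Thor read 9.91 FPKM in R57C10, 59.5 and 66.3 in OK107, 56.2 and 58.9 in Tdc2, and 10.8 in whole brain, so it was high in both narrower groups of nuclei while Ilp2 among tagged nuclei was high in OK107.

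In Tdc2 against R57C10, 5 of the 23 rose and 4 fell (5 and 5 with median centring), near the 20.6% and 15.2% of all genes. Thor (2.42), foxo (1.98), ImpL2 (1.88), CG3837 (Sdr, a secreted decoy of the insulin receptor, 1.35) and Rheb (0.67) rose, and rictor (-0.63), Pdk1 (-0.49) and Ide (-0.39) were among those that fell. In OK107 against Tdc2, 10 rose and 2 fell, or 3 and 3 with median centring, where 34.3% of all genes rose and 14.0% fell. Ide (0.83) and Pdk1 (0.77) rose under both scalings, and ImpL2 (-0.74) and CG3837 (-0.71) fell. In R57C10 against whole brain, InR (0.75) and rictor (0.64) were higher and 5 were lower, among them CG3837 (-3.09) and ImpL2 (-2.81). With median centring 6 were higher and 4 lower. The share over all genes was 22.3% higher and 32.8% lower. ImpL2 read 3.57 FPKM in R57C10, 9.28 and 8.84 in OK107, 16.7 and 14.9 in Tdc2, and 31.0 in whole brain, the same order of groups as the means of Ilp6. In OK107 against whole brain 6 rose and 3 fell (4 and 4 with median centring), where 31.5% of all genes rose and 22.0% fell. In Tdc2 against whole brain 5 rose and 6 fell (5 and 5), where 21.2% of all genes rose and 29.1% fell.

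The place of the genes on the chromosome was read beside their levels. In the current annotation (release 6, a later build than that of the files, so no coordinates are given), Ilp1, Ilp2, Ilp3, Ilp4 and Ilp5 follow each other on chromosome 3L, and the first 4 of them lie within CG32052. Ilp1 is on the same strand as CG32052, and 258 of its 631 exon bases are shared with exons of that gene. Ilp2 is also on that strand, Ilp3 and Ilp4 are on the other, and none of these shares an exon base with it. Reads from the shared exon bases of Ilp1 and CG32052, which are on 1 strand, cannot be assigned to either gene by strand. For the genes on the other strand, no source used here says that strand was used in counting.

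CG32052 read 22.1 FPKM in R57C10, 16.1 and 17.1 in OK107, 8.58 and 13.1 in Tdc2, and 13.1 in whole brain. Its order among the tagged nuclei was that of Ilp1, with a narrower range, but whole brain was not its lowest library. The ratio of Ilp1 to CG32052 was 2.41 in R57C10, 1.44 and 1.56 in OK107, 1.32 and 1.29 in Tdc2, and 0.262 in whole brain. In R57C10 against whole brain CG32052 did not pass (0.71, limma adjusted p 0.0888), whereas Ilp1 differed by 3.62.

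Ilp4, an insulin-like gene known from embryos, lies between Ilp3 and Ilp5 and ran with Ilp1 rather than with these. It read 5.25 FPKM in R57C10, 3.93 and 4.00 in OK107, 1.49 and 2.17 in Tdc2, and 0.350 in whole brain, and was higher in R57C10 than in whole brain by 2.21 (limma adjusted p 0.00218). CG14168 (Zasp67), which also lies within CG32052, read 16.2, then 9.93 and 10.8, then 4.69 and 6.45, then 1.03 FPKM in the same order of groups. Ilp8, a peptide of growing tissue listed as CG14059, stayed between 0.0884 and 0.593 FPKM.

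**Figure D4:**
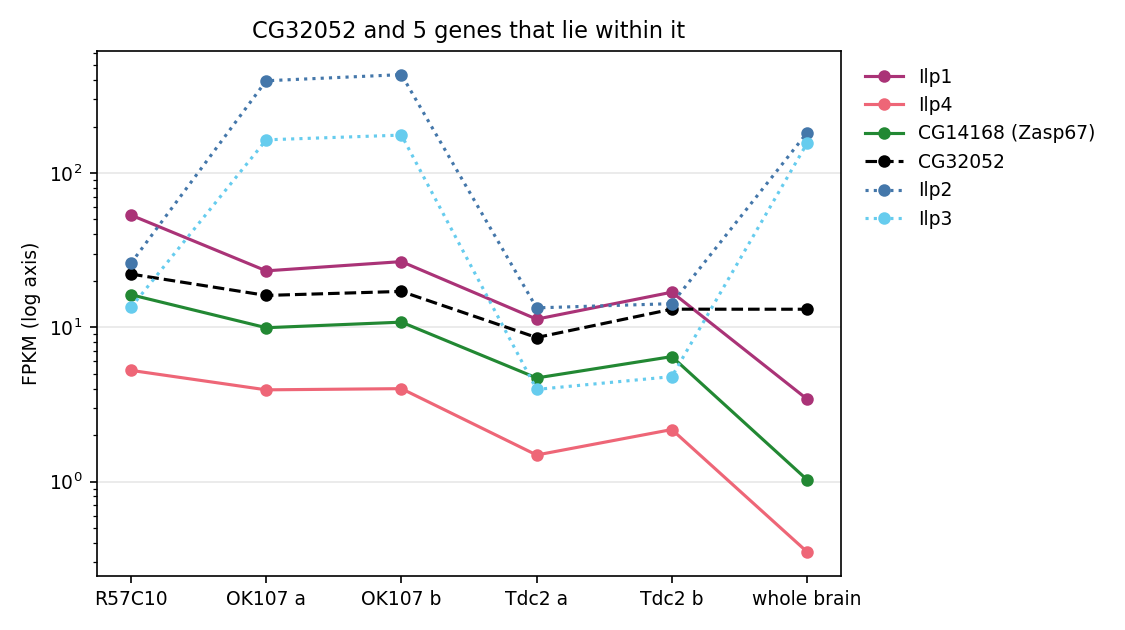
FPKM (log axis) of CG32052 (dashed) and of genes that lie within it, in each library; lines only join the points of a gene. Ilp1, Ilp4 and CG14168 descend from R57C10 to whole brain, where Ilp4 reads 0.350, while Ilp2 and Ilp3 (dotted) peak in OK107 and read 182 and 156 in whole brain.

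The 8 genes most like Ilp1 had r from 0.989 to 0.992. They were CG15450, CG14168, CG10869, CG14087, Sse, CG33998, CG17109 and CG43193, and their level in R57C10 was 8.98 to 19.1 times that in whole brain. Of the 7 with a position in the current annotation, all 7 lie within another gene, 6 of them on its opposite strand, against 28.2% of the 706 ranked genes with a position and 15.4% of all fly genes. Position was no part of the ranking. Ilp7 itself does not lie within another gene, but 7 of its 8 nearest genes (r 0.807 to 0.891) do. Among them are CG12898, CG33476 and CG33477, which lie within SLO2 on the same strand. Of the nearest genes of Ilp6, 1 of 8 did. Whether RNA of the overlapping genes enters the values of Ilp1 and Ilp7 was not tested.

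The remaining genes have other surroundings. Ilp6 lies within Raf (listed as phl) on the opposite strand with no exon base shared. phl read between 30.1 and 40.2 FPKM in all libraries while Ilp6 varied 8.47-fold. Ilp7 overlaps Parg on the opposite strand by 9 exon bases, and Parg read between 3.94 and 6.80 FPKM. Ilp5 lies within CG43897, whose level was not used here.

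Ilp6 was read beside markers of the tissues known to make it. By r, its 8 nearest genes were CG9119 (0.990), CG1213 (0.989), TotA (0.988), CG33080 (0.983), CG2233 (0.9785), Rfabg (0.977), CG16826 (0.977) and Tsf1 (0.976). TotA encodes a stress-induced secreted peptide, Rfabg the apolipophorin precursor of fat body, and Tsf1 a transferrin. The 17 fat body genes with values in all libraries summed to 596 FPKM in R57C10, 294 and 292 in OK107, 6886 and 6152 in Tdc2, and 4757 in whole brain, in Tdc2 and whole brain mostly from the yolk protein genes. Of the 14 tested, 8 rose in Tdc2 against R57C10 (9 with median centring) and none fell, where 20.6% of all genes rose. Rfabg read 103, then 83.1 and 78.5, then 476 and 450.1, then 633 in the same order. Fbp1 and Fbp2, also on this list, were at or below 0.551 FPKM in all libraries.

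Glial genes were read beside Ilp6 too. The 12 with values in all libraries summed to 138 FPKM in R57C10, 305 and 316 in OK107, 540 and 645 in Tdc2, and 3901 in whole brain, and 11 of 11 tested rose in Tdc2 against R57C10. repo, the defining glial transcription factor, read 1.57, then 3.54 and 3.38, then 11.7 and 11.0, then 21.3. Glial genes thus also rose in OK107 (8 of 11 against R57C10, or 4 with median centring), where Ilp6 did not pass and 21.4% of all genes rose. Against whole brain, 11 of 11 were lower in each of R57C10, OK107 and Tdc2. The share of all genes that were lower was 32.8%, 22.0% and 29.1%. Ilp6 was lower than in whole brain in R57C10 (-2.87) and OK107 (-2.59) and did not pass in Tdc2 (-0.50).

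Other markers moved in Tdc2 against R57C10 as well, where 20.6% of all genes rose and 15.2% fell. Of the hemocyte genes tested, 3 of 4 rose, and the 6 with values in all libraries summed to 78.4 FPKM in R57C10, 97.4 and 95.1 in Tdc2, and 107 in whole brain. The defining hemocyte genes eater and He stayed at or below 0.645 FPKM. Of the muscle genes, 5 of 9 rose (7 with median centring), and the 8 with values in all libraries summed to 66.3 FPKM in R57C10, 176 and 485 in Tdc2 a and b, and 83.4 in whole brain. Of the pan-neuronal genes, 5 of 8 fell, among them elav (-0.78, limma adjusted p 0.0093), para (-1.12) and cac (-0.92). The part of fat body, glial, hemocyte and muscle RNA in the level of Ilp6 was not tested.

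**Figure D5:**
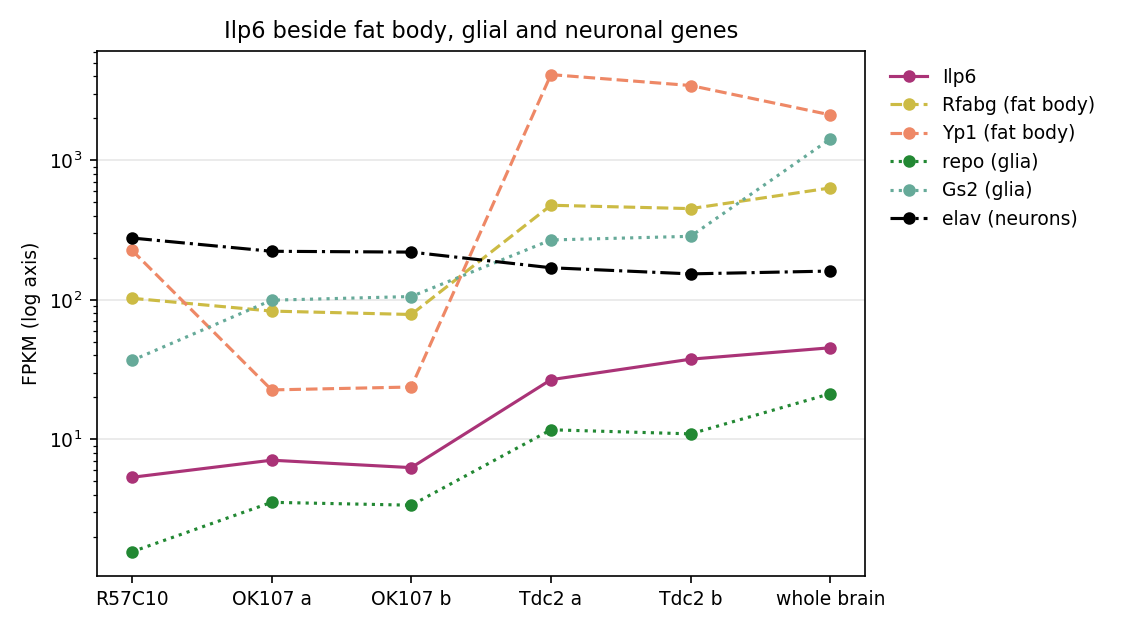
FPKM (log axis) of Ilp6 and of fat body (dashed), glial (dotted) and neuronal (dash-dotted) genes in each library; lines only join the points of a gene. Ilp6, Rfabg, Yp1 and repo are higher in both Tdc2 libraries than in R57C10 and OK107, while elav is lower in Tdc2 (170 and 153) than in R57C10 (277).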

How the data were processed

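The deposited FPKM values per gene and isoform come from Cuffdiff 1.3.0, per the submitters' processing notes, which also name CASAVA 1.8, TopHat 1.4.0, bedtools 2.15 and build dm3. The q-values are the authors' own, per the file headers, and are deposited only under 0.05. Libraries of tagged nuclei were made from nuclear RNA with a NuGEN Ovation kit, per the labels' protocols; how the whole brain RNA was made is not given in the sources used here. Another 4 per-library columns repeat library names and were not used.

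Groups came from the labels. Genes that reached 1 FPKM in 2 or more libraries were tested on log2(FPKM + 1) in R 4.3.3 by limma 3.58.1, with its trend and robust options, checked on simulated data, with adjustment over all genes. The tagged groups were fitted on 5 libraries and whole brain comparisons on 6. Implied reads were estimated from steps in the low values of 5619 genes. The depth kept for a library was the one that brought these values closest to whole reads. At that depth 58.7% to 65.3% of them lay within 0.2 of a whole read. Evenly spread values would also lie that close in part, so no count test was run, and depths are approximate. Intervals and SEs rest on few libraries.

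The genes, the lists and the rule for naming genes (all members, the 8 nearest by r, all of lists of 8 or fewer, and in longer ones those with the highest levels or smallest p) were chosen with earlier results of these data known. Names and overlaps come from the release 6 annotation. Alternatives were pseudocounts of 0.1 and 5, no filter, median centring, the date tag or spike-in status as a term, and leaving out each OK107 and Tdc2 library. Median centring of the gene list counts was added after seeing the data.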

Additional observations from a re-analysis of the deposited data

How the results depend on the processing

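Of the recomputed differences of single genes, 328 kept their direction and side of the threshold, 14 lost the call, 13 gained it and 5 turned. Those that turned were below the threshold: Ilp6 in OK107 against R57C10 with median centring (-0.17), and Ilp7 in Tdc2 against whole brain with median centring (0.15), the date tag as a term (0.11), spike-in status as a term (0.042) and without Tdc2 a (0.11, against -0.19 without Tdc2 b). The number of the 6 genes that passed fell from 6 to 2 in Tdc2 against R57C10 without the filter, and the cause was not tested. It rose from 3 to 6 in OK107 against whole brain with the date tag as a term. That term is set by the 2 Tdc2 libraries and leaves the OK107 pair alone to give the spread. Leaving out each OK107 or Tdc2 library gave 3 to 5 in OK107 against R57C10, 6 to 6 in Tdc2 against R57C10, 4 to 6 in OK107 against Tdc2, 6 to 6 in R57C10 against whole brain, 3 to 4 in OK107 against whole brain and 4 to 5 in Tdc2 against whole brain. Over all genes, the counts without the filter were 868 (of 2388), 1495 (of 3437), 2508 (of 4631), 2962 (of 5295), 3093 (of 5141) and 2237 (of 4835) in the order of the report, and 440 to 5655 in OK107 against R57C10 when a library was left out. In that comparison median centring turned the split from 2047 higher and 341 lower to 792 and 1562. No paired analysis was possible because the names of the Tdc2, R57C10 and whole brain columns carry no replicate number, and a and b of Tdc2 are names given here. Where 1 OK107 or Tdc2 library was left out, the lone one was assumed to vary like the other pair. Depth limits Ilp7, at 18.2 to 119 implied reads, most.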
